A study of Mus musculus with 2 samples.

Results

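The upstream promoter DARs are the differentially accessible regions (DARs) that the authors placed in a promoter and that end before the transcription start site (TSS) of the listed gene. They were chosen from the deposited annotation as the DARs whose class is a promoter class and whose distance to the TSS is below 0, which gave 489 of 5650 DARs (8.65%), all of them within 3 kb upstream. Of these, 273 were gain DARs, listed as more accessible after BRD9 inhibition, and 216 were loss DARs, listed as less accessible. Gain DARs therefore made up 55.8% of the upstream promoter DARs (95% Wilson interval 51.4 to 60.2), against 55.9% gain and 44.1% loss among all 5650 DARs, so the share was near the background.

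ATAC-seq, in which the Tn5 transposase cuts and tags DNA that is not covered by nucleosomes, was performed on bone marrow-derived monocytes (BMDMs) from C57BL/6 mice aged 4 to 6 weeks. Both groups were cultured in M-CSF (50 ng/ml) with RANKL (100 ng/ml), the cytokine pair that turns these cells into osteoclasts, and received either vector (MR + vector) or the BRD9 inhibitor iBRD9 (MR + iBRD9) for 24 h. There was 1 library of 5000 cells per group, with no genetic change in either, and the labels give no iBRD9 dose for these libraries. The study chose an iBRD9 dose for its further work and also used a lower dose together with dexamethasone. Whether either was the dose used here is not stated. A DAR is a region of the merged peaks whose signal differed between the libraries by 0.5 or more on the log2 scale. The tables give positions, distances and genes but neither reads nor the size of a change. The depth behind a DAR is thus unknown, no difference between the libraries has a replicate check, and the direction of a DAR rests on the table that lists it. Cell type markers could not be checked, since only changed regions are listed.

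The DNA just before a TSS holds the core and proximal promoter, where general transcription factors and proteins such as SP1, NF-Y and NRF1 bind and where nucleosomes are usually displaced. BRD9 is a bromodomain protein and the defining subunit of ncBAF, one of the BAF remodelling complexes that use ATP to move nucleosomes. In monocytes, RANKL acts through NF-kB, AP-1 and NFATc1 to switch on genes for cell fusion and bone resorption, and interferon signalling restrains that programme.

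The sequences below are upstream promoter DARs of genes on the fixed lists, of at most 300 bp and outside every annotated exon. They are shown as examples with and without the motifs compared later, and with makeup from CpG-dense to CpG-free. All were read from GRCm39 on the strand of the listed gene, 5′ to 3′, with matches to the searched motifs on either strand in capitals. The first 5 are gain DARs. Gbp5 is at chr3:142199337-142199486 (plus strand, intergenic), where a TATA box and a forkhead match overlap and a part of the CTCF site lies before them. Pax2 is at chr19:44744024-44744202 (plus strand, intron), with 1 GC box. Hdac1 is at chr4:129419204-129419389 (minus strand, intron), with 1 RUNX site. Slc7a7 is at chr14:54636160-54636309 (minus strand, intron), with 1 AP-1 site. Mapk10 is at chr5:103360180-103360346 (minus strand, intergenic), with 1 forkhead match.
Gbp5: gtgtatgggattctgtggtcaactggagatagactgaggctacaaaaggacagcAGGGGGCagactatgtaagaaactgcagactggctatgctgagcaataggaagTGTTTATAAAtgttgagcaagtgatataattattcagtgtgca
Pax2: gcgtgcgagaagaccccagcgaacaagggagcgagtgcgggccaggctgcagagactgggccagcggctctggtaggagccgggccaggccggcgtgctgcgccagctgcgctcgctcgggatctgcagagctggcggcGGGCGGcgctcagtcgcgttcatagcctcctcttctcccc
Hdac1: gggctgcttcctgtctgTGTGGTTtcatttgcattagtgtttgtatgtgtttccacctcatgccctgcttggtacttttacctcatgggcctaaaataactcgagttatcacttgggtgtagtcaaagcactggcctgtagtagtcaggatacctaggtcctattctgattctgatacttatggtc
Slc7a7: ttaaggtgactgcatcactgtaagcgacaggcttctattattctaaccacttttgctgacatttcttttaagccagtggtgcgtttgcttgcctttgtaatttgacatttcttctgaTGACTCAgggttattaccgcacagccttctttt
Mapk10: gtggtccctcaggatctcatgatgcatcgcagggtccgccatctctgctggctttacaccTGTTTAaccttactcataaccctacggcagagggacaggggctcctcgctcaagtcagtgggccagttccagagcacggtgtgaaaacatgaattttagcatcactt

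The next 7 are loss DARs. Bptf is at chr11:107023020-107023174 (minus strand, intergenic) and holds 2 GC boxes. Zfp384 is at chr6:124985710-124985995 (plus strand, intron) and holds 2 overlapping ETS matches, 1 on each strand, and 1 GC box. Kdm1a is at chr4:136297436-136297611 (minus strand, intron), where 3 AP-1 sites start at bases 90, 125 and 160 within a repeated stretch. Arid1a is at chr4:133484759-133484930 (minus strand, intergenic), Klf6 at chr13:5914284-5914503 (plus strand, intron), Ctsz at chr2:174281315-174281578 (minus strand, intergenic) and Tnfsf13b at chr8:10080701-10080873 (plus strand, intron). These last 4 hold no match to any of the 16 motifs, which says only that those letters are not in the region.
Bptf: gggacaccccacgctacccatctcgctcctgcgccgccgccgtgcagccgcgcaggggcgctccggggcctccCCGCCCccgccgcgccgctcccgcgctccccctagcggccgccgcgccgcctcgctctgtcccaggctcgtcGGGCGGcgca
Zfp384: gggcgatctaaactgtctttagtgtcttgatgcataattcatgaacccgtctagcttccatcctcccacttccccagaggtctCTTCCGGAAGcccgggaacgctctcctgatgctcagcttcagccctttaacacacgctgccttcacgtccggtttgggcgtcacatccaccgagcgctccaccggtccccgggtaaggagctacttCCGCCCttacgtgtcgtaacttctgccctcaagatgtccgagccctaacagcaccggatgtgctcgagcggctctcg
Kdm1a: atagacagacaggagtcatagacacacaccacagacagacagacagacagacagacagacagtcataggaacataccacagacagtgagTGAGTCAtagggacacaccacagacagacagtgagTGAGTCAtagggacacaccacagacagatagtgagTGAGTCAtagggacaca
Arid1a: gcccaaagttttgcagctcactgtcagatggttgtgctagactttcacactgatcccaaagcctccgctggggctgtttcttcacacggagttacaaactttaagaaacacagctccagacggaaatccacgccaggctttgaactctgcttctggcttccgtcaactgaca
Klf6: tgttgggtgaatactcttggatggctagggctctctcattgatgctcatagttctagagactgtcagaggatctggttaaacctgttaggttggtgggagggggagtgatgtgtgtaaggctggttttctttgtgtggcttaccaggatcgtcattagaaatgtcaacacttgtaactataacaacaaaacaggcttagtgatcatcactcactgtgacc
Ctsz: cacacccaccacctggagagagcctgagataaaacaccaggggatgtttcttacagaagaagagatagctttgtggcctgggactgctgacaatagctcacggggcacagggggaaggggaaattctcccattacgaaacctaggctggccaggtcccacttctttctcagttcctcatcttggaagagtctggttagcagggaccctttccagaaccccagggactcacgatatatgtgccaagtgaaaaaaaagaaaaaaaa
Tnfsf13b: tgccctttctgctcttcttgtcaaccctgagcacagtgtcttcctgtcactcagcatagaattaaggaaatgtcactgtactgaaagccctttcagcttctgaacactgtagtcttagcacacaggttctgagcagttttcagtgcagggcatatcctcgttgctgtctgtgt

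The DARs were most numerous close to the listed TSS in both directions of change. Each distance is to the nearest listed start, and no background distribution of distances was compared. Within 250 bp lay 69 of 273 gain DARs (25.3%, interval 20.5 to 30.7) and 67 of 216 loss DARs (31.0%, interval 25.2 to 37.5). Within 1 kb lay 159 gain DARs (58.2%, interval 52.3 to 63.9) and 128 loss DARs (59.3%, interval 52.6 to 65.6). A further 57 gain and 46 loss DARs were listed at 1 to 2 kb, and 57 gain and 42 loss DARs at 2 to 3 kb. Per 100 bp of promoter, there were 54.4 DARs in the first 250 bp and between 18 and 21.2 in the bins from 251 to 1000 bp. The number was lowest, at 7.80, between 2001 and 2500 bp, and was 12 at 2501 to 3000 bp. The median distance was 818 bp for gain DARs (95% order-statistic interval 652 to 955, n = 273) and 774 bp for loss DARs (535 to 901, n = 216), and these intervals overlap. All intervals here cover counting error over regions only, not the difference between cultures.

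**Figure D1:**
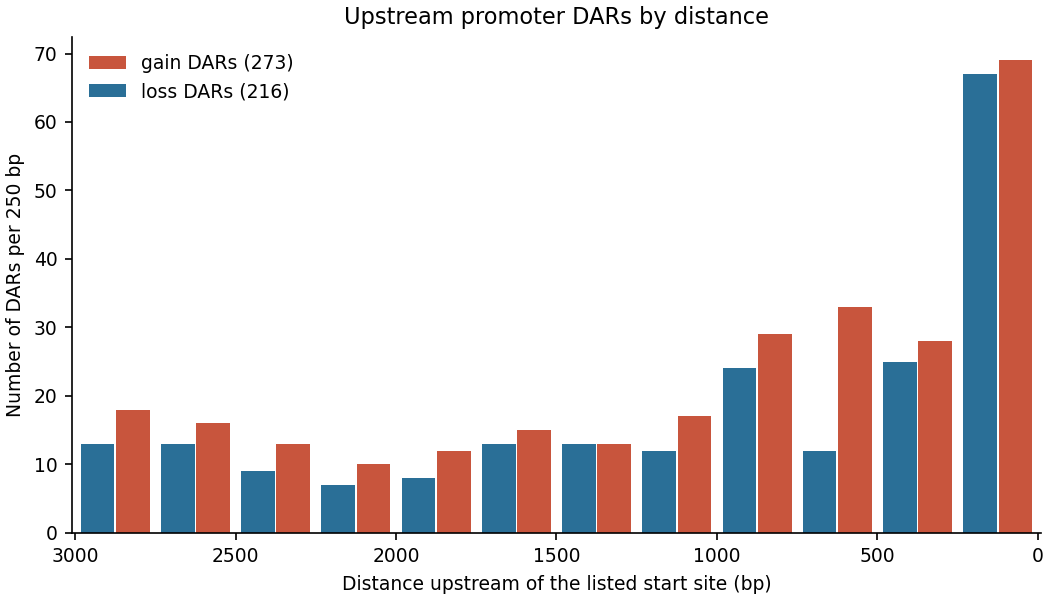
Number of gain DARs (red) and loss DARs (blue) per 250 bp (y axis) against the distance in bp from the end of the DAR nearest to the TSS to the listed TSS (x axis, TSS at the right). The first 250 bp hold 69 gain and 67 loss DARs, and the widest gap is at 501 to 750 bp, with 33 gain and 12 loss DARs.

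The gain share was close to that of all DARs in 7 of 8 distance bins. It was 50.7% in the first 250 bp (interval 42.4 to 59.0, n = 136), 52.8% at 251 to 500 bp (39.7 to 65.6, n = 53) and between 54.5% and 59.0% in the 5 bins beyond 750 bp. At 501 to 750 bp it was 73.3% (interval 59.0 to 84.0, 33 of 45 DARs), the only bin whose interval does not include 55.9%. The value depended on where the bin was placed, at 62.2% when moved 125 bp closer to the TSS and 54.7% when moved 125 bp farther, both chosen after seeing the data. Gain DARs of that bin on the fixed lists were those of Ifitm3 (503 bp), Ino80 (533 bp), Or2n1c (552 bp), Slc16a1 (572 bp), Mir6336 (674 bp), Zfp975 (688 bp) and Slc7a7 (749 bp). The loss DARs there were those of Slc19a2 (509 bp), Trim2 (535 bp) and Arid1a (679 bp).

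**Figure D2:**
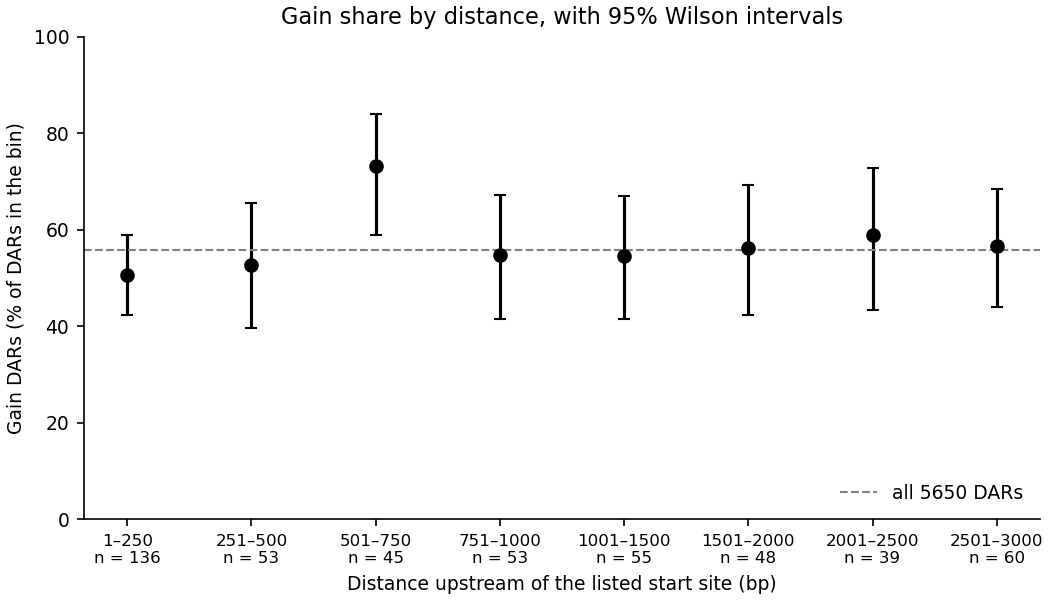
Gain DARs as a percentage of the upstream promoter DARs (y axis) in 8 bins of distance to the listed TSS in bp (x axis). Points are the shares, bars their 95% Wilson intervals and the dashed line the 55.9% of all DARs; the bin at 501 to 750 bp is at 73.3% and the other 7 intervals include the line.

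The listed genes were 487 different genes, 273 with a gain DAR and 215 with a loss DAR, and 1 gene, Pla2g5, was in both groups. Protein-coding genes made up the same share of each, with 182 of 273 gain DARs and 144 of 216 loss DARs (66.7% in both). Genes for long noncoding RNAs were listed for 34 gain and 24 loss DARs, and pseudogenes for 31 gain and 20 loss DARs. Genes for small RNAs such as snRNAs, snoRNAs and microRNAs were listed for 9 gain and 16 loss DARs, a gain share of 36% (interval 20.2 to 55.5, n = 25) with an interval that ends just below the 55.9% of all DARs. It is 1 of 6 gene classes compared, and the other 5 intervals include that value. On 16 of 19 autosomes gain DARs outnumbered loss DARs, and on 1 the numbers were equal. The matching count over all DARs, of which 55.9% were gain, was not made. Each of the 489 sequences was placed uniquely in the genome by alignment.

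Upstream of a listed start did not always mean upstream of the gene. ChIPseeker-type annotation takes the nearest transcript start, which can be an internal one. Of 476 DARs whose gene is in GENCODE M39, 222 (46.6%) were listed with the canonical transcript, the main one chosen by Ensembl for each gene. Measured from the canonical TSS, 279 DARs lay 1 to 3000 bp upstream, 12 farther upstream, 32 across the TSS, 33 within 3000 bp downstream and 120 (25.2%, interval 21.5 to 29.3) more than 3000 bp downstream. The last group held 62 gain DARs (23.2% of gain) and 58 loss DARs (27.8% of loss, interval 22.1 to 34.2). For example, the gain DAR of Itgb5, the integrin beta 5 subunit, ended 2 bp before its listed start but 62083 bp downstream of the canonical one. The gain DAR of Hdac1, a histone deacetylase, lay 827 bp upstream of its listed start and 17122 bp downstream of the canonical one.

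Seen from the present annotation, 207 upstream promoter DARs (42.3%) lay in introns, 116 (23.7%) between genes, 87 (17.8%) on an exon and 78 (16.0%) across some annotated TSS, and 1 was on unplaced sequence. Gain and loss DARs were spread alike over these places, with gain shares of 56.0% in introns (interval 49.2 to 62.6), 56.0% between genes (47.0 to 64.7), 51.7% on exons (41.4 to 61.9) and 59.0% across a TSS (47.9 to 69.2). A TSS of another gene on the opposite strand lay within 1 kb of 54 gain DARs (19.8%, interval 15.5 to 24.9) and 42 loss DARs (19.4%, interval 14.7 to 25.2). Of these 96 opposite genes, 84 were long noncoding RNA genes. A protein-coding transcript started there for 8 gain and 4 loss DARs.

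Sequence makeup changed with distance more than with direction. Mean GC content was 57.7% ± 9.85 (SD, n = 136 regions) in the first 250 bp, 49.2% ± 6.82 (n = 53) at 751 to 1000 bp and 49.8% ± 6.45 (n = 60) at 2501 to 3000 bp. The ratio of observed to expected CpG dinucleotides fell from 0.502 ± 0.323 to 0.175 ± 0.160 between the first and the last of these bins. CpG-island-like windows, the central 200 bp with at least 50% GC and a CpG ratio of at least 0.6, made up 52 of 136 DARs (38.2%) in the first bin and 1 of 60 in the last. All 200-bp windows of protein-coding promoters in the genome gave 54.4% ± 11.3 GC in the first 200 bp and 44.0% ± 7.80 in the last. The DARs had the higher mean at both ends of the range. The windows were laid from canonical protein-coding starts, whereas the DARs are whole regions near any listed start. All other DARs had a mean GC content of 50.5% ± 7.58, so the value of the farthest bin was not particular to upstream promoter DARs.

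**Figure D3:**
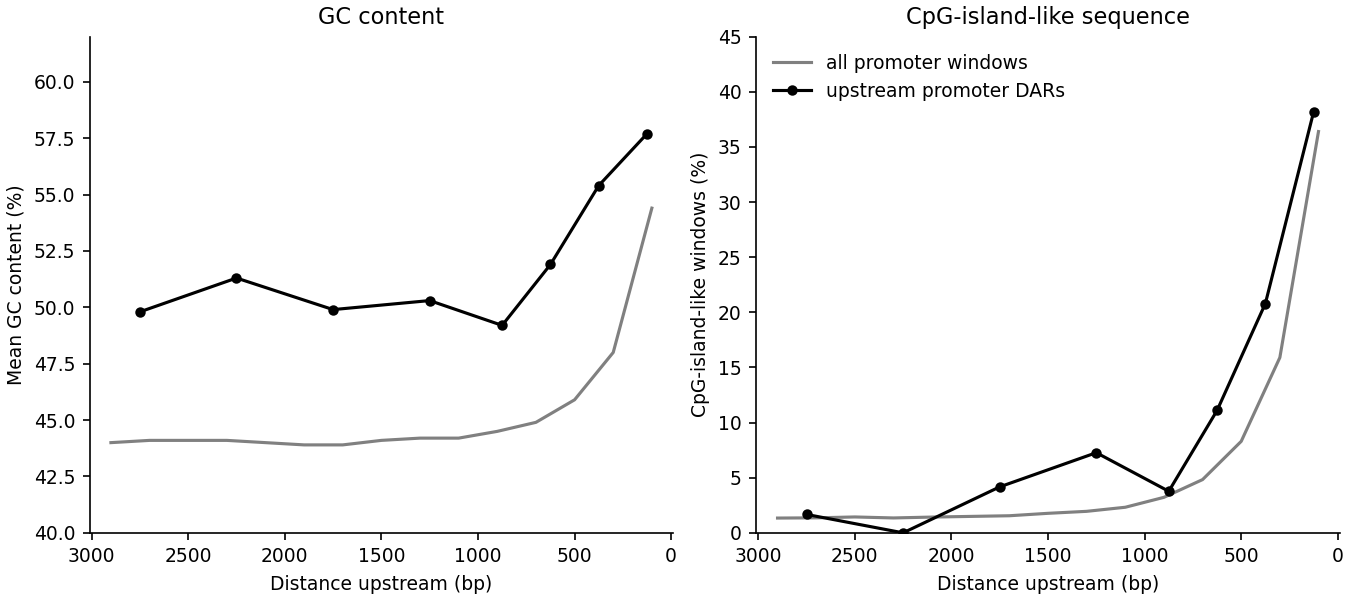
Left, mean GC content in percent, and right, share of CpG-island-like 200-bp windows in percent, against the distance upstream of the TSS in bp. Black points are the upstream promoter DARs per distance bin (GC over the whole region) and the grey line all 200-bp windows upstream of protein-coding canonical TSSs; GC was 57.7% in the DARs nearest to the TSS and 49.8% in the farthest.

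Between the directions the differences were small next to the spread over regions. Mean GC content was 53.4% ± 8.68 in gain DARs (n = 273) and 52.3% ± 7.93 in loss DARs (n = 216), and the CpG ratio was 0.339 ± 0.292 and 0.303 ± 0.259. CpG-island-like windows were 50 of 273 gain DARs (18.3%, interval 14.2 to 23.3) and 27 of 216 loss DARs (12.5%, interval 8.73 to 17.6). In the first 250 bp mean GC was 59.4% in gain and 55.8% in loss DARs, and beyond 1 kb it was 50.2% in both. Median widths were 184 bp and 186 bp, and 54 gain and 40 loss DARs had the smallest width of 150 bp.

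DARs that cover a TSS differed from those just upstream of one. The 440 DARs across a TSS had a mean GC content of 62.9% ± 8.43 and a median width of 224 bp, against 52.9% ± 8.37 and 185 bp in the 489 upstream DARs. CpG-island-like windows made up 310 of 440 (70.5%, interval 66.0 to 74.5) across the TSS and 77 of 489 (15.7%, interval 12.8 to 19.2) upstream, and the 2 intervals do not overlap. The 583 DARs that start 1 to 3000 bp downstream of a TSS stood near the upstream ones, with 54.1% ± 8.28 GC and 96 CpG-island-like windows (16.5%, interval 13.7 to 19.7). The gain share was 56.1% (51.5 to 60.7) across the TSS and 57.6% (53.6 to 61.6) downstream, intervals that include the upstream share of 55.8%. These are shares of regions from the same pair of libraries, and a difference between the classes was not tested.

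Matches to 16 motifs were searched in the central 200 bp of each DAR, on both strands. The GC box GGGCGG, bound by SP and KLF proteins, was in 73 of 287 upstream promoter DARs within 1 kb (25.4%, interval 20.7 to 30.8) and in 13 of 202 at 1 to 3 kb (6.44%, interval 3.80 to 10.7). All promoter windows of that length held it in 12.8% within 1 kb and 2.99% beyond, and DARs across a TSS in 54.3%. All other DARs, which include those across a TSS, held it in 8.10%. The windows are spread evenly over each range, whereas 136 of the 287 DARs within 1 kb lay in the first 250 bp. Shares of DARs and windows are thus not matched for distance. Within 1 kb the GC box was in 44 of 159 gain DARs (27.7%, interval 21.3 to 35.1) and 29 of 128 loss DARs (22.7%, interval 16.3 to 30.6). The CCAAT box, bound by NF-Y, was in 27.9% of DARs within 1 kb, against 26.2% of promoter windows.

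Motifs of the monocyte and osteoclast factors were near each other in the 2 directions. The AP-1 site TGANTCA, where FOS and JUN bind, was in 28 of 273 gain DARs (10.3%, interval 7.19 to 14.4) and 25 of 216 loss DARs (11.6%, interval 7.96 to 16.5), against 5.28% of promoter windows within 1 kb and 5.76% beyond. All other DARs held it in 11.1%, a share within both of these intervals. The PU.1-type site GAGGAAG was in 10.6% of gain DARs (7.50 to 14.8) and 10.2% of loss DARs (6.82 to 14.9), and the interferon-type repeat GAAANNGAA in 4.03% (2.26 to 7.07) and 3.70% (1.89 to 7.14). All other DARs held these 2 motifs in 11.7% and 4.69%, shares within the intervals of both directions. The TATA box TATAAA was in 33 of 489 DARs (6.75%, interval 4.85 to 9.33), below the 12.7% and 15.3% of promoter windows within and beyond 1 kb. All other DARs held it in 6.36%, so the low share was not particular to the upstream promoter DARs.

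The widest gaps between gain and loss DARs were at 2 motifs within 1 kb. The YY1 site AAGATGG was in 13 of 159 gain DARs (8.18%, interval 4.84 to 13.5) and 3 of 128 loss DARs (2.34%, interval 0.800 to 6.66). Promoter windows within 1 kb held it in 4.05%. The forkhead core TAAACA was in 18 gain DARs (11.3%, interval 7.28 to 17.2) and 7 loss DARs (5.47%, interval 2.67 to 10.9), against 12.4% of promoter windows. The intervals of each pair overlap, and both were picked from 16 motifs after their values were seen. Over the 3 kb the YY1 site was in 6.23% of gain and 3.70% of loss DARs, against 4.24% of all other DARs. The forkhead core was in 8.06% of gain and 8.80% of loss DARs over the 3 kb, against 8.76% of all other DARs. In all, 12 of the 16 motifs had the higher share in gain DARs over the 3 kb, some by little, such as the RUNX site (3.30% against 3.24%). Gain DARs also had the higher mean GC content, and a link between the 2 was not tested.

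**Figure D4:**
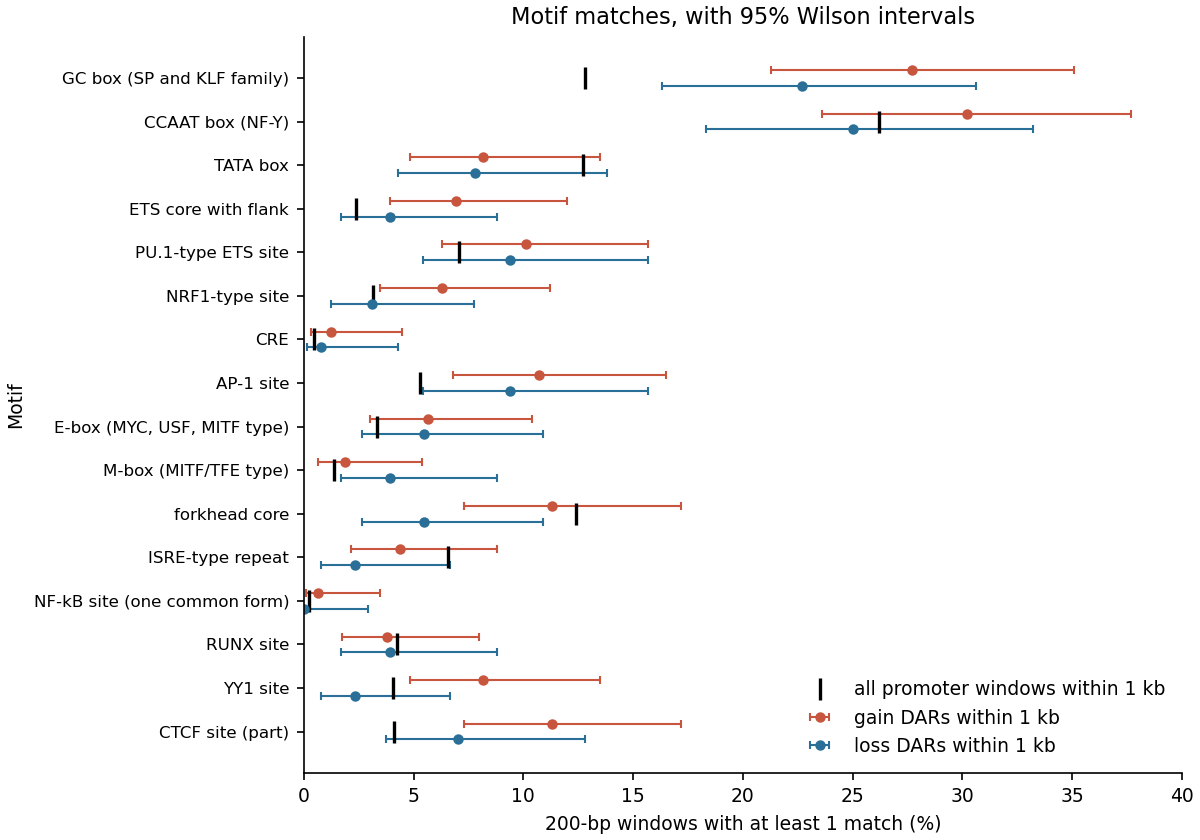
Percentage of 200-bp windows with at least 1 match (x axis) for each of 16 motifs (y axis) in upstream promoter DARs within 1 kb of the TSS. Red points are gain DARs (159), blue points loss DARs (128), bars 95% Wilson intervals and black ticks all promoter windows within 1 kb. The GC box stands above its tick in both directions, at 27.7% and 22.7%, with DARs and windows not matched for distance.

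Of the genes on the 26 fixed lists, 64 had an upstream promoter DAR, 31 of them a gain DAR and 33 a loss DAR. That is a gain share of 48.4% (interval 36.6 to 60.4), and the interval includes the 55.9% of all DARs. None of the 11 genes looked up because the study names them (the osteoclast genes Acp5, Ctsk, Mmp9, Dcstamp, Nfatc1 and Fos, with Brd9, Ifnb1, Stat2, Myc and Foxp1) had one. The DARs are described by gene role, each with its distance upstream of the listed TSS.

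**Figure D5:**
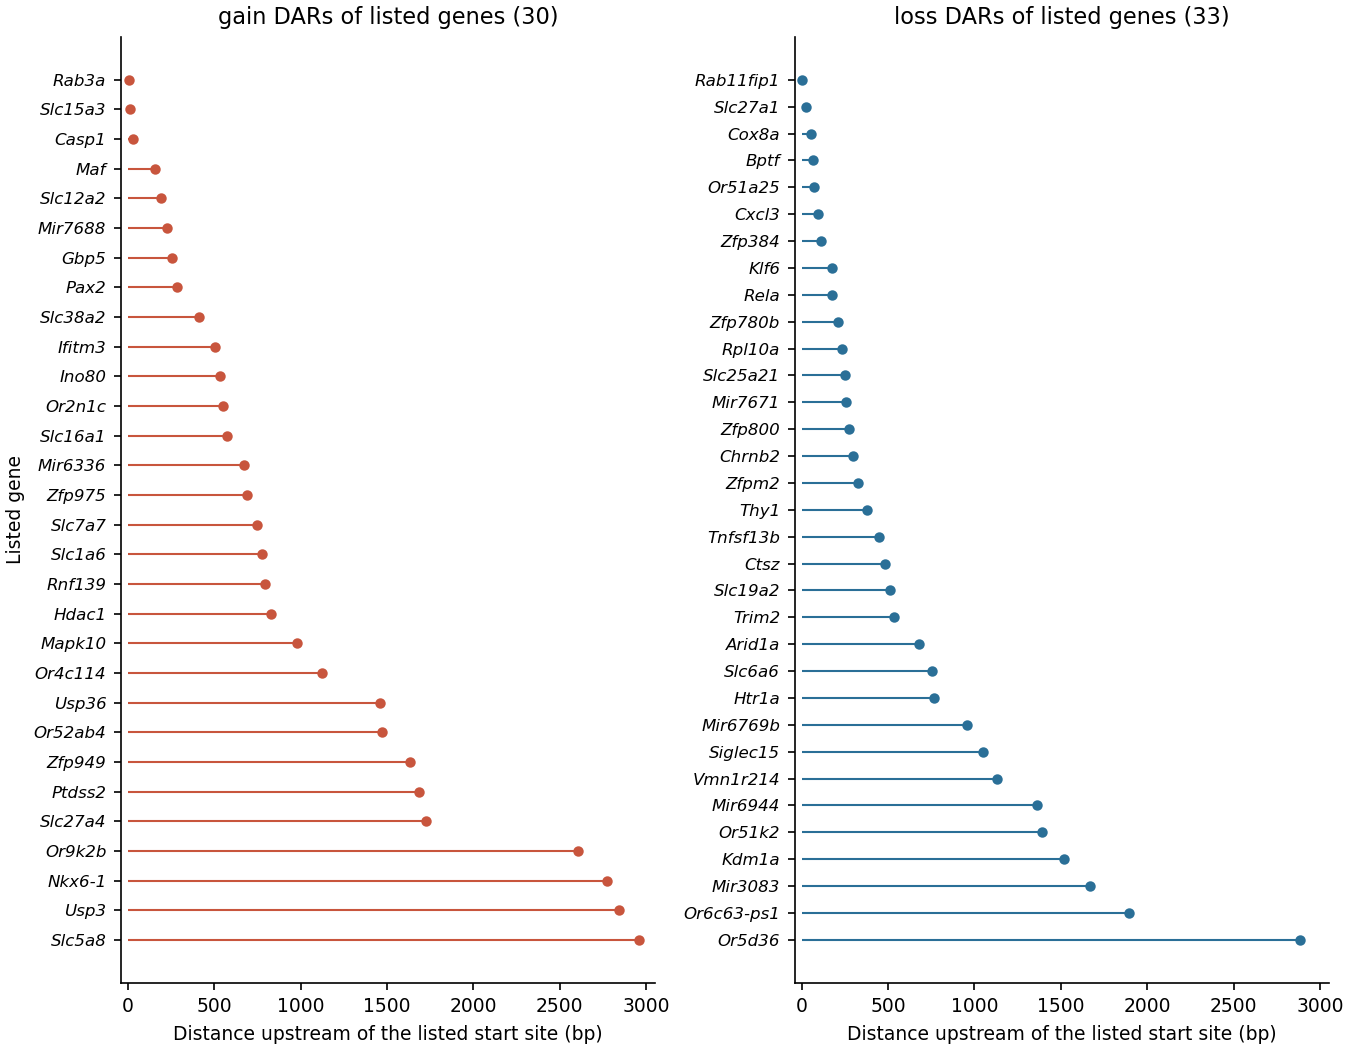
Distance in bp upstream of the listed TSS (x axis) for upstream promoter DARs of genes on the fixed lists (y axis), gain DARs on the left (30 of 31 shown) and loss DARs on the right (33). Each line ends at the DAR; the nearest are those of Rab3a (gain, 7 bp) and Rab11fip1 (loss, 1 bp), and the farthest those of Slc5a8 (gain, 2958 bp) and Or5d36 (loss, 2883 bp).

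Of 67 listed genes for osteoclast differentiation and bone resorption, 2 had an upstream promoter DAR. Both were loss DARs, too few to set against the 44.1% loss of all DARs. Siglec15, a sialic acid-binding lectin of osteoclasts that signals through DAP12, had a loss DAR 1049 bp upstream. Rela, the p65 subunit of NF-kB, had a loss DAR 175 bp upstream (chromosome 19 from 5687171 to 5687336), which also overlaps an exon of a noncoding gene. Over every promoter-class DAR the osteoclast list had 2 gain and 3 loss DARs, and over DARs of any class 12 gain and 6 loss DARs. The Toll-like receptor and NF-kB list, with Rela as its only upstream promoter DAR among 63 genes, had 4 gain and 5 loss DARs of any class. The cytokine list added 2 loss DARs, and over DARs of any class it had 9 gain and 7 loss DARs. The 2 loss DARs were at Cxcl3, a neutrophil-attracting chemokine (97 bp, chromosome 5 from 90933518 to 90933865), and at Tnfsf13b, which encodes the B cell survival factor BAFF (445 bp).

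The interferon list had 2 gain DARs and no loss DAR among its 76 genes, too few to set against the 55.9% gain of all DARs. Gbp5, an interferon-induced GTPase that promotes inflammasome assembly, had one 253 bp upstream of its listed start and 3048 bp upstream of the canonical one. Ifitm3, which restricts the entry of viruses, had a gain DAR 503 bp upstream of the listed start that covers the canonical one (chromosome 7 from 140591186 to 140591335). Counting DARs of any class, this list had 5 gain and 2 loss DARs. Ifi207 (626 bp) and Mndal (51 bp), interferon-inducible genes that are not on the list and were picked after their values were seen, had loss DARs. Casp1, the inflammasome protease that matures interleukin-1 beta, had a gain DAR 29 bp upstream (chromosome 9 from 5298293 to 5298479). It was the only one of 53 cell death genes with an upstream promoter DAR. Over every promoter-class DAR the cell death list had 1 gain and 3 loss DARs, and over DARs of any class 4 gain and 7 loss DARs. The transcription factor gene Maf, 1 of 30 listed monocyte and macrophage markers, had a gain DAR 156 bp upstream. None of the 34 listed markers of other blood lineages had an upstream promoter DAR. Thy1, a T cell marker and 1 of 24 listed stromal, bone-forming and endothelial markers, had a loss DAR 376 bp upstream. Counting DARs of any class, the macrophage list had 4 gain and 3 loss DARs and the stromal list 6 gain and 1 loss. The list of other blood lineages had 0 gain and 3 loss DARs of any class. These single markers are too few to set against the 55.9% gain and 44.1% loss of all DARs.

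Chromatin regulators had DARs in both directions, too few to set against the 55.9% gain of all DARs. Of 61 genes for BAF complexes and bromodomain proteins, Ino80, the ATPase of the INO80 remodeller, had a gain DAR at 533 bp. Bptf, the histone-reading subunit of the NURF remodeller, had a loss DAR at 67 bp, in which 82.6% of the bases were G or C, and Arid1a, a subunit that marks the canonical BAF complex, had a loss DAR at 679 bp. Among 79 genes for histone modification and DNA methylation, Hdac1 had a gain DAR at 827 bp and Kdm1a, the histone demethylase LSD1, a loss DAR at 1518 bp. Both lie in introns of these genes, Kdm1a's 32488 bp downstream of the canonical TSS. Counting DARs of any class, the BAF and bromodomain list had 7 gain and 6 loss DARs, and the histone modification list 9 gain and 5 loss. Zinc finger genes had 2 gain DARs, at Zfp975 (688 bp) and Zfp949 (1634 bp), and 5 loss DARs, at Zfp384 (113 bp), Klf6 (174 bp), Zfp780b (209 bp), Zfp800 (271 bp) and Zfpm2 (326 bp). This is a gain share of 28.6% (interval 8.22 to 64.1, n = 7), and the interval includes the 55.9% of all DARs. Counting DARs of any class, the zinc finger list had 39 gain and 22 loss DARs. The homeobox and paired-box genes Pax2 (282 bp) and Nkx6-1 (2771 bp) had gain DARs. Counting DARs of any class, their list had 9 gain and 4 loss DARs.

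Solute carriers, the membrane transporters of nutrients and ions, had upstream promoter DARs at 13 of 395 listed genes, 9 gain and 4 loss (gain share 69.2%, interval 42.4 to 87.3, n = 13). The gain DARs included those of the lysosomal peptide transporter Slc15a3 (11 bp), the sodium-potassium-chloride cotransporter Slc12a2 (193 bp) and the amino acid transporters Slc38a2 (411 bp), Slc7a7 (749 bp) and Slc1a6 (775 bp). They also included the lactate transporter Slc16a1 (572 bp), the fatty acid transporter Slc27a4 (1727 bp) and Slc5a8, a sodium-coupled carrier of monocarboxylates (2958 bp). The loss DARs were those of the related fatty acid transporter Slc27a1 (23 bp), the mitochondrial carrier Slc25a21 (250 bp), the thiamine transporter Slc19a2 (509 bp) and the taurine transporter Slc6a6 (754 bp). Over DARs of any class the list had 39 gain and 34 loss DARs. The interval of this share includes the 55.9% of all DARs.

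Of the metabolic and housekeeping lists, the phospholipid list had 1 upstream promoter DAR among 67 genes, a gain DAR 1685 bp upstream of the listed start of Ptdss2, a phosphatidylserine synthase, and 21527 bp downstream of its canonical one. Loss DARs were listed for Ctsz, a lysosomal protease (483 bp), Cox8a, a subunit of cytochrome c oxidase (55 bp), and the ribosomal protein gene Rpl10a (235 bp). In the ubiquitin list the deubiquitinase genes Usp36 (1459 bp) and Usp3 (2844 bp) and the ligase gene Rnf139 (795 bp) had gain DARs. The ligase gene Trim2 (535 bp) had a loss DAR. Counting DARs of any class, the ubiquitin list had 22 gain and 27 loss DARs. The kinase gene Mapk10, which encodes JNK3, had a gain DAR at 980 bp. The secretory GTPase gene Rab3a had a gain DAR 7 bp upstream, and Rab11fip1, an effector of Rab11 matched by its name, a loss DAR 1 bp upstream. The sterol and fatty acid, Tmem and histone gene lists had none.

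Sensory, transmitter and small RNA genes were listed too. Receptor genes for odours and pheromones had 4 gain DARs, at Or2n1c (552 bp), Or4c114 (1123 bp), Or52ab4 (1472 bp) and Or9k2b (2606 bp), and 5 loss DARs, at Or51a25 (70 bp), Vmn1r214 (1129 bp), Or51k2 (1388 bp), Or6c63-ps1 (1897 bp) and Or5d36 (2883 bp). The gain share of these receptor genes was 44.4% (interval 18.9 to 73.3, n = 9), and the interval includes the 55.9% of all DARs. The transmitter receptor genes Chrnb2 (299 bp) and Htr1a (768 bp) had loss DARs. Counting DARs of any class, their list had 5 gain and 7 loss DARs. MicroRNA genes had gain DARs at Mir7688 (224 bp) and Mir6336 (674 bp) and loss DARs at Mir7671 (257 bp), Mir6769b (957 bp), Mir6944 (1360 bp) and Mir3083 (1666 bp). The DARs of Mir6336, Mir6769b and Mir6944 lie in introns of Lrp1b, Unc13a and Dbn1, so that the listed gene is not the only one they belong to.

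The DARs nearest to a listed protein-coding TSS ended within 21 bp of it. Some of these starts are internal ones, as the DARs of Itgb5, Strbp and Uap1 lay 62083, 109138 and 12862 bp downstream of the canonical start. Among gain DARs these were the Notch target gene Heyl (1 bp, chromosome 4 from 123127129 to 123127348), Itgb5 (2 bp), Rab3a and Tcl1 (7 bp each), Slc15a3 (11 bp), Hook2 (12 bp), Lman2l (13 bp), the mRNA export gene Chtop (17 bp), the importin gene Ipo4 and Strbp (20 bp each). The loss DARs were those of the dynein adaptor gene Bicd2, the sarcomere gene Myom2 and Rab11fip1 (1 bp each), the sialyltransferase gene St3gal3 (6 bp), the water channel gene Aqp11 (9 bp), Plekhg5 (10 bp), 4930522L14Rik (12 bp), Uap1 and Naprt, an enzyme of NAD synthesis (16 bp each), and Gm16253 (21 bp). At the far end, gain DARs were listed for Nav1 (2999 bp), Tbc1d20 (2989 bp), Slc5a8 (2958 bp), Ccdc194 (2852 bp) and Adamts3 (2850 bp). Loss DARs there were those of the calcium sensor gene Stim2 (2999 bp), Supt20 (2966 bp), Coro2b (2941 bp), Dnai3 (2909 bp) and the chloride channel gene Ano1 (2900 bp). Just inside the 3 kb limit of the promoter class were Nav1, Stim2 and Gm16321 (2992 bp), and just outside it Gm13312 (3004 bp, gain), Gm2824 (3021 bp, loss) and Mbp (3062 bp, loss).

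The widest gain DARs were 1 on unplaced sequence (866 bp) and those of Lrrc58 (476 bp), Cpeb4 (401 bp), Gfpt1 (383 bp) and the pseudogene Gm19340 (370 bp). The widest loss DARs were those of Mindy4 (594 bp), the potassium channel gene Kcnj8 (500 bp), Sema6b (477 bp), the activin receptor gene Acvr2b (421 bp) and Slc27a1 (420 bp).

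Few genes had more than 1 DAR, and their DARs went the same way in 30 of 60 genes. All DARs were 55.9% gain and 44.1% loss, and agreement beyond what that split gives was not tested. Btc, the EGF receptor ligand betacellulin, had 2 loss DARs, 131 and 868 bp upstream of a start inside the gene. Pla2g5, a secreted phospholipase A2, had a gain DAR 43 bp upstream of one start and a loss DAR 1861 bp upstream of another. Counting DARs of any class, 60 genes with an upstream promoter DAR had a further one, all gain in 20 genes, all loss in 10 and mixed in 30. In 4 genes the further DAR covered a TSS, and this was a loss DAR in each, too few to set against the 44.1% loss of all DARs. Of these 4 genes, Tmbim4 had a loss DAR upstream too, while E230016M11Rik and Gm39469 had a gain DAR upstream. Rasgrp1, an activator of RAS, had gain DARs 52 bp upstream and at 10919 and 38364 bp inside the gene. Another DAR lay within 5 kb of only 15 upstream promoter DARs, and the nearest went the same way for 5 of them.

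Further genes of macrophage and bone biology were picked after their values were seen and support nothing beyond their own values. Gain DARs were listed for C5ar2, a receptor for complement C5a (43 bp), Nr3c1, the glucocorticoid receptor (213 bp), the kinase gene Pim1 (375 bp) and Ptpn6, the phosphatase SHP-1 (1909 bp). The TGF-beta-binding proteins Ltbp1 (250 bp) and Ltbp3 (197 bp) and the matrix protease Mmp2 (700 bp) also had gain DARs. Loss DARs were listed for Smad3, which carries TGF-beta signals to the nucleus (24 bp), the activin receptor gene Acvr2b (69 bp), the lectin gene Clec4a1 (80 bp), Bin2 (359 bp) and the transcription factor gene Ikzf2 (1830 bp). The Ltbp1 and Ltbp3 DARs lie in introns, 130904 and 2394 bp downstream of the canonical starts, whereas those of Smad3 and Acvr2b cover it.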

How the data were processed

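ATAC-seq libraries of MR + vector and MR + iBRD9 BMDMs, 1 per group, were used as 3 annotated DAR tables in GRCm39 deposited by the authors. Per the methods, reads were trimmed, aligned, freed of duplicates and sampled to a common depth, and peaks were called per library and merged; the submitters' processing notes name cutadapt 1.9.1, Bowtie2 2.2.6, Picard 1.126 and MACS3. The tables name X and Y as further numbered chromosomes.

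Distances were recomputed from the positions for all 489 regions. Genes, introns and canonical starts came from GENCODE M39 (481 of 489 transcripts matched). GC, CpG and 16 motifs were read from GRCm39 with Python 3.11.15, pandas 2.3.3, scipy 1.17.1 and pysam 0.24.0, and uniqueness with minimap2. Counts, 95% Wilson intervals and order-statistic intervals were used; with 1 library per group there is no test. Scripts were tested on simulated data.

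The members and gene lists were chosen with earlier results of these data known. Named genes are list members, genes the study names, the 10 closest, 5 farthest and 5 widest regions per direction and genes with 2 regions; some of these are not reported here. Repeat content, planned, was left out because the genome used has no repeat marking.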

Additional observations from a re-analysis of the deposited data

How the results depend on the processing

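No test across replicates exists, so alternatives were compared with the counting interval of each value or, for counts, within 1.5 times. The gain share stayed within its interval under all 7 alternatives for the set of regions, and the gain and loss counts under 6 of them. With a limit of 1 kb the counts were 159 and 128. With protein-coding genes only, the median distance was 624 bp for gain and 522 bp for loss DARs, and the share within 1 kb was 66.0% for loss DARs. Measured from the middle of the region to the closest protein-coding transcript start, the medians were 2188 bp (interval 1618 to 3046) and 2978 bp (1691 to 7823), so gain DARs were then the closer ones. With canonical starts only, chosen after seeing the data, the medians were 793 bp for gain (590 to 1006) and 1015 bp for loss DARs (724 to 1319). Gain DARs were again the closer ones, with intervals that overlap. Limits of 500 bp and 2 kb gave 35.5% and 79.1% of gain DARs, and 42.6% and 80.6% of loss DARs. Within 1 kb only, mean GC was 55.6% and 53.7%, and the CpG ratio 0.432 and 0.377. An opposite-strand TSS lay within 500 bp of 12.8% and 11.6%, within 2 kb of 25.6% of gain DARs, and was that of a protein-coding transcript for 2.93% and 1.85%. Moved 125 bp farther, the bin at 501 to 750 bp had 54.7% gain DARs. Over every promoter-class DAR the lists had 75 gain and 76 loss DARs, and over every DAR 298 and 237. In whole regions 32 of 32 motif shares stayed within their interval, and in 400-bp windows 12 of 32, the other 20 being higher. The alternative that ignores the promoter class gave the same 489 regions. A filter on a larger fold change was not run, since the tables hold none. No paired analysis was possible because there is 1 library per group.

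Depth per region is unknown, so a low-coverage DAR cannot be told from a well-covered one. Treatment and library cannot be told apart. A DAR was listed with its nearest start, which need not be the gene it acts on.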
